A study of Rattus norvegicus with 23 samples.

Results

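The microRNAs described here were the mature products of the miR-203a hairpin and of the miR-200 family, which holds miR-200a, miR-200b, miR-200c, miR-141 and miR-429. Every entry of the sRNAbench count table with one of these names was taken, from either arm of the hairpin, which gave 9 of 413 entries. They were measured by small RNA sequencing in rat PC12 cells, an adrenal tumour line that makes catecholamines and can take on neuronal features. One of the 2 lines made α1ACT, a transcription factor encoded in the 3′ part of the Cacna1a transcript; its stable pcDNA3 construct held 11 glutamine repeats and a 3xFlag tag at the C terminus. The comparison line carried the empty pcDNA3 vector, and both lines had been selected with G418. The times of collection, counted from splitting, were 6 h, 24 h, 3 d and 10 d. There were 23 libraries in 8 groups, 2 for vector at 6 h and 3 for each other group. The labels speak of stable clones without giving their number, so the construct and the clone that carries it cannot be told apart.

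A microRNA is a short RNA that guides a silencing complex to messenger RNAs, mainly through its seed, bases 2 to 8 from the 5′ end. miR-203 is best known from skin, where it rises as epidermal cells leave the proliferating layer. The miR-200 family is best known for keeping cells epithelial by repressing Zeb1 and Zeb2, repressors of the E-cadherin gene that in turn repress the family's own genes. Its members fall into 2 seed classes that differ by 1 base, miR-200b, miR-200c and miR-429 in one and miR-200a and miR-141 in the other.

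Mature sequences were found in RefSeq (build GRCr8) for 6 of the 9 entries, and 4 are shown because they carry the comparison of hairpin arms and of the seed classes. Capitals mark the seed, and each sequence runs 5′ to 3′.
miR-203a-3p: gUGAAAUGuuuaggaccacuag
miR-203a-5p: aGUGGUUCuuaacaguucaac
miR-141-3p: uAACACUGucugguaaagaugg
miR-200c-3p: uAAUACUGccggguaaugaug
The seed of miR-203a-3p is UGAAAUG, which neither miR-200 class holds. The other 2 entries found were miR-141-5p and miR-200a-5p, and the 3 named only were miR-200a-3p, miR-200b-3p and miR-429. Over the 21 positions that miR-141-3p and miR-200c-3p share, counted from the 5′ end with the base of miR-141-3p first, 4 bases differed. They were C4U, the seed difference of the classes, and U9C, U11G and A17U outside the seed. The hairpin that yields miR-203a is given with its 5p and 3p arms in capitals.
Mir203 hairpin: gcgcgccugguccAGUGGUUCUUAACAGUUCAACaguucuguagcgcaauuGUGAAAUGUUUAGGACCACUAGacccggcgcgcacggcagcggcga

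The genes lie at 3 places in GRCr8. Mir203 is on the plus strand at chr6:137020705-137020801, 3288 bp from Aspg, the nearest protein-coding gene, and the hairpin Mir3545 overlaps it on the minus strand. Mir141 (chr4:159209525-159209618) and Mir200c (chr4:159209965-159210033) are 347 bp apart on the minus strand, with Phb2 964 bp from Mir141. Mir200b (chr5:171931495-171931589), Mir200a (chr5:171930717-171930805) and Mir429 (chr5:171929682-171929766) follow each other on the minus strand with gaps of 690 bp and 951 bp, inside the spans of Ttll10 and of a long non-coding RNA gene. A second hairpin also overlaps Mir200c and Mir200a, Mir3575 and Mir3548 respectively.

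Library totals ran from 448557 counts (vector, 3 d, replicate 1) to 5070120 counts (α1ACT, 10 d, replicate 1). Of the 413 entries, 269 passed the filter on low counts and were tested. Levels are given as CPM, read counts scaled to equal library size, after TMM scaling, and a change was called where the quasi-likelihood test of edgeR gave a p under 0.05 after Benjamini-Hochberg adjustment over all 269. The vector library named 6 h replicate 2 and that named 10 d replicate 2 stand for each other in the 2 deposited tables: over 154 miRNAs each matched the other's column in the Chimira table best, while the other 21 libraries matched their own name. As deposited, the Chimira table thus places these 2 libraries as the sRNAbench table does once they are exchanged. The main tests of the members that rest on these libraries are therefore also given with the 2 exchanged and with both left out. Tests of single miRNAs outside the set are given with the libraries as named only. For the line difference averaged over the times, the number of all miRNAs called fell from 34 to 18 with the 2 exchanged. miR-375-3p, abundant in endocrine cells, averaged 146795 CPM. The summed level of 3 endocrine markers was 161882 to 218536 CPM in vector and 142832 to 207100 CPM in α1ACT libraries. That sum was almost all miR-375-3p and miR-182 (31338 CPM on average). The other marker, miR-7a, was scarce: miR-7a-1-3p averaged 12.4 CPM and miR-7a-5p 5.88 CPM. miR-122 of liver was not listed. miR-133a, the only muscle marker listed, did not exceed 0.383 CPM, and blood markers did not exceed 10.3 CPM. Small RNA tables hold no measurement of the α1ACT construct itself.

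rno-miR-203a-3p dominated the set. It held 23908 of the 25190 counts of the 9 entries, or 94.9%, and 0.0397% of all counts, and it ranked 87th of 413 entries by mean CPM. The 7 miR-200 family entries summed to 1270 counts, or 5.04% of the set. In that family miR-141-3p had 692 counts (rank 217), rno-miR-200b-3p 303 (rank 246), miR-429 209 (rank 253), miR-200a-3p 58 (rank 286) and miR-200c-3p 5 (rank 355). Counts of miR-141-5p summed to 3 and those of miR-200a-5p to 0. Only miR-203a-3p, miR-141-3p, miR-200b-3p and miR-429 passed the filter, 4 of 9. Other microRNAs known from epithelia varied widely in level, with miR-205 not listed and miR-31a-5p at 0.217 CPM on average. miR-375-3p and miR-182, both also abundant in endocrine cells, averaged 146795 and 31338 CPM.

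miR-203a-3p was lower in the α1ACT line at every time, by a small amount. At 6 h it stood at 404 and 431 CPM in the vector libraries and at 331, 384 and 308 CPM in the α1ACT libraries. At 24 h the values were 443, 445 and 396 CPM in vector and 344, 415 and 353 CPM in α1ACT. At 3 d they were 475, 455 and 480 CPM against 406, 438 and 373 CPM. At 10 d they were 433, 414 and 368 CPM against 364, 388 and 330 CPM. The lines did not overlap at 6 h and 3 d and overlapped at 24 h and 10 d. Over all times, 11 of 12 α1ACT libraries lay below the vector median of 433 CPM, and 6 lay below the lowest vector library.

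**Figure D1:**
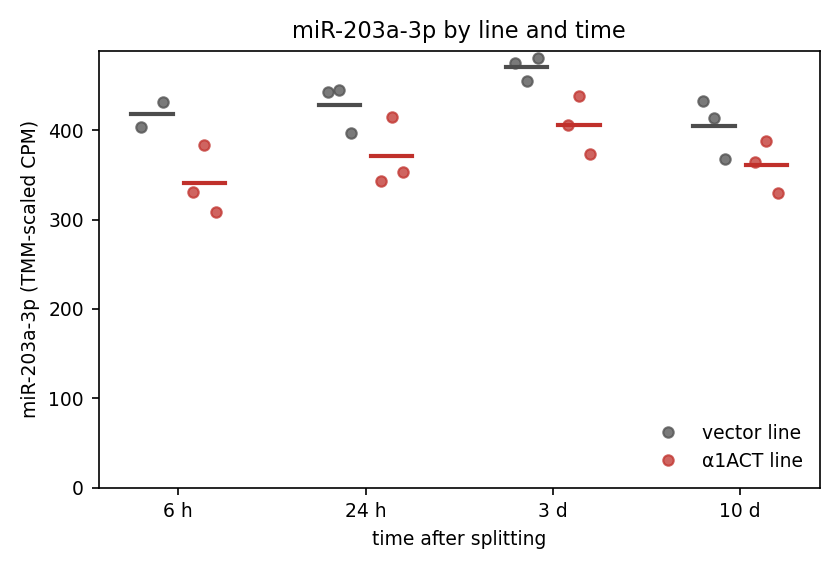
TMM-scaled CPM of miR-203a-3p in each library (points) with group means (bars), by time after splitting, for the vector and α1ACT lines. The α1ACT mean lies below the vector mean at each time, from 341 against 418 CPM at 6 h to 361 against 405 CPM at 10 d.

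The vector line averaged 431 ± 33.9 CPM (SD, n = 11) and the α1ACT line 369 ± 38.6 CPM (SD, n = 12). The log2 difference averaged over the 4 times was -0.22 (SE 0.0566, 95% interval -0.34 to -0.10, edgeR adjusted p = 0.0120), a level 14.1% lower. It was the only 1 of the 4 tested members called in this comparison, in which 12.6% of all 269 miRNAs were called and 5.95% were called lower. The difference was -0.21 (adjusted p = 0.0318) in the Chimira table and -0.22 (adjusted p = 0.0292) with the 2 doubtful vector libraries exchanged. These 2 fits place the doubtful libraries alike. With both left out the difference was -0.21 (adjusted p = 0.0455). The call ended under upper-quartile scaling (-0.13, adjusted p = 0.0872) and with library totals alone (-0.15, adjusted p = 0.0852). Those scalings called 43 miRNAs higher and 5 lower, and 36 higher and 5 lower, against 18 and 16 with TMM. Relative to the median of all tested miRNAs the difference of miR-203a-3p was -0.22 under each of these 3 scalings.

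No single time passed the test. The differences of miR-203a-3p were -0.29 at 6 h (adjusted p = 0.414), -0.21 at 24 h (0.475), -0.21 at 3 d (0.652) and -0.17 at 10 d (0.545), in edgeR's test. With the doubtful libraries exchanged the values were -0.26 at 6 h and -0.19 at 10 d, and with both left out -0.29 and -0.12, none of them called. The 10 d value ran from -0.22 (without vector replicate 3) to -0.08 (without α1ACT replicate 3) and was -0.05 with library totals, and the 6 h value was -0.10 with upper-quartile scaling. Across all miRNAs, 0%, 0.372%, 0.372% and 1.49% were called at these times. At 6 h edgeR called 0 of 269, with 30 at an unadjusted p under 0.05, while DESeq2 called 3 and limma-voom 0. None of the 4 members was called at a single time by any of the 3 tools. One of them, miR-203a-3p at 6 h, had an unadjusted edgeR p of 0.0243, which became 0.0540 with the doubtful libraries exchanged. For other members the exchange lowered the unadjusted edgeR p under 0.05. At 6 h miR-200b-3p then gave 1.42 (unadjusted p = 0.0180, adjusted p = 0.323) and miR-429 2.05 (0.00795 and 0.261). At 10 d miR-200b-3p gave -1.13 (0.0307 and 0.212). A line effect that changes with time was not called for miR-203a-3p (interaction, edgeR unadjusted p = 0.896, adjusted p = 0.9997), nor with the doubtful libraries exchanged (adjusted p = 0.9987) or left out (0.9985). In bulk samples, fewer cells that make a microRNA and less of it per cell cannot be told apart.

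The test over the 4 times called miR-203a-3p in neither line. The highest group was vector at 3 d (470 ± 13.4 CPM, SD, n = 3), followed by vector at 24 h (428 ± 27.5), vector at 6 h (418 ± 19.3, n = 2), α1ACT at 3 d (406 ± 32.2), vector at 10 d (405 ± 33.6), α1ACT at 24 h (370 ± 38.7), α1ACT at 10 d (361 ± 29.2) and α1ACT at 6 h (341 ± 38.7). Only the step from vector 3 d to vector 24 h separated neighbours whose libraries did not overlap. The edgeR test over the 4 times gave an adjusted p of 0.404 in the vector line and 0.236 in the α1ACT line, where 36.8% and 42.4% of all miRNAs were called. The vector value was 0.586 with the doubtful libraries exchanged and 0.330 with both left out. From 3 d to 10 d, a comparison added after the values had been seen, the vector line gave -0.21 (adjusted p = 0.142), -0.19 exchanged (0.260) and -0.27 with both left out (0.109). With library totals in place of TMM that change was called (-0.33, adjusted p = 0.0352), and with upper-quartile scaling its sign turned (0.017). The α1ACT line gave -0.17 (0.223). Counting error depended on depth: the shallowest library held 212 counts, or 473 CPM of its unscaled total (95% exact binomial interval 411 to 541), and the deepest 1900 counts, or 375 CPM (358 to 392). These intervals cover counting error only.

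The other arm, miR-203a-5p, was near the limit of detection. The sRNAbench table listed 12 counts of it, in 5 of 23 libraries, all of the α1ACT line. This table holds no value of 1, its smallest value above 0 being 2, so a 0 in it is no sign of absence. The Chimira table, which holds 1160 values of 1, listed 36 counts in 19 libraries, 15 of them in the vector line and 21 in the α1ACT line. The 5p arm made up 0.0502% of the hairpin's counts in the sRNAbench table and 0.144% in the Chimira table. For miR-141 the 5p share was 0.432% and 1.45%, and for miR-200a 0% and 6.14%, the last from 7 counts of the 5p arm. The 3p arm held most counts of each of these 3 hairpins in both tables.

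In the class with the miR-200c seed, miR-200b-3p fell between the early times and 10 d in the α1ACT line. In that line it stood at 7.58, 3.30 and 9.30 CPM at 6 h (18, 7 and 17 counts) and at 6.75, 3.40 and 5.82 CPM at 24 h (22, 8 and 13 counts). At 3 d it stood at 7.56, 6.94 and 12.6 CPM (17, 16 and 25 counts) and at 10 d at 2.30, 1.63 and 1.45 CPM (12, 5 and 3 counts). All 3 libraries at 10 d lay below all 9 earlier α1ACT libraries. The 3 counts of α1ACT 10 d replicate 3 correspond to 1.46 CPM, unscaled (95% exact binomial interval 0.301 to 4.26), so single libraries were imprecise.

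In the vector line miR-200b-3p stood at 2.16 and 4.06 CPM at 6 h (5 and 9 counts) and at 4.46, 4.15 and 2.63 CPM at 24 h (13, 10 and 4 counts). At 3 d it stood at 13.5, 4.39 and 10.7 CPM (6, 13 and 40 counts) and at 10 d at 5.52, 2.75 and 2.85 CPM (22, 8 and 10 counts). The highest value came from 6 counts in the shallowest library. At 10 d all 3 α1ACT libraries lay below all 3 vector libraries, while at 6 h and 24 h 2 of 3 α1ACT libraries lay above the highest vector library.

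**Figure D2:**
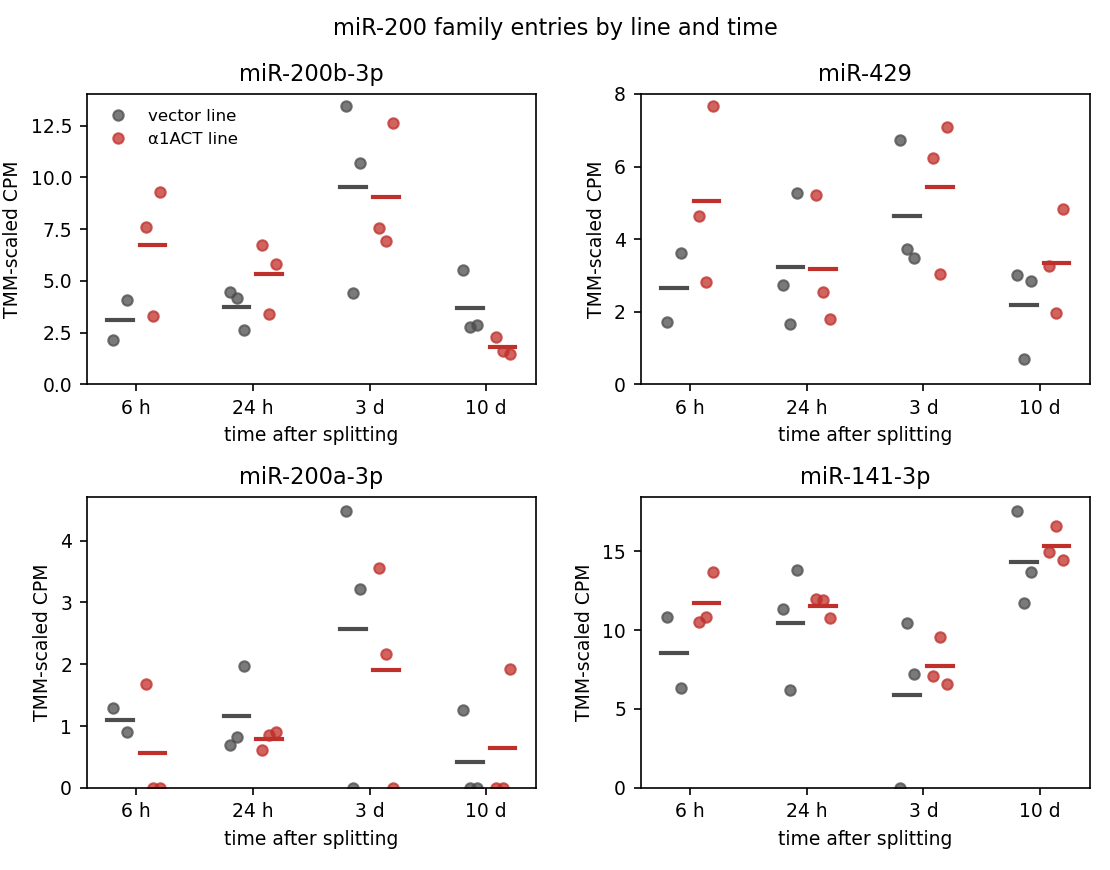
TMM-scaled CPM of 4 miR-200 family microRNAs in each library (points) with group means (bars), by time after splitting, for both lines; the axes differ between panels and start at 0. miR-200b-3p reaches its lowest group mean, 1.79 CPM, in the α1ACT line at 10 d, where miR-141-3p has its highest, 15.3 CPM.

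The log2 change of miR-200b-3p from 6 h to 10 d in the α1ACT line was -1.81 (SE 0.509, edgeR adjusted p = 0.00985), a level 0.286 times that at 6 h. It was the only 1 of 4 members called there, where 27.1% of all miRNAs were called and 16% were called lower. The test over all 4 times in this line gave an adjusted p of 0.00445. In the vector line the change from 6 h to 10 d was 0.28 (SE 0.577, adjusted p = 0.805), 0.74 with the doubtful libraries exchanged and 0.82 with both left out. There 0 of 4 members were called by edgeR, DESeq2 or limma-voom, with 0 at an unadjusted p under 0.05, and 11.9% of all miRNAs were called. Over the 4 times the vector line gave an adjusted p of 0.0790, 0.0699 exchanged and 0.116 with both left out. The interaction of line and time had an unadjusted p of 0.0637 and an adjusted p of 0.9997 for miR-200b-3p. With the doubtful libraries exchanged these were 0.0168 and 0.590, and with both left out 0.0472 and 0.9985, so a difference between the lines in their time course was not shown. edgeR called 0% of the 269 miRNAs for that interaction, with 10 at an unadjusted p under 0.05, while DESeq2 called 2 and limma-voom 0. In the Chimira table, where the doubtful libraries stand as exchanged, the interaction of miR-200b-3p had an unadjusted p of 0.00503 and an adjusted p of 0.256.

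The step from 3 d to 10 d was compared after the values had been seen. In the α1ACT line miR-200b-3p changed by -2.23 on the log2 scale (SE 0.493, edgeR adjusted p = 0.00114), and in the vector line by -1.16 (SE 0.463, adjusted p = 0.0589). The vector value was -1.02 both with the doubtful libraries exchanged (0.117) and with them left out (0.139). It was called with library totals (-1.27, adjusted p = 0.0382), without vector 3 d replicate 2 (-1.59, 0.0195) and without vector 10 d replicate 1 (-1.58, 0.0387), and in the Chimira table with the libraries exchanged (-1.02, 0.0332). Of the 4 members 2 were called in the α1ACT line, where 32.7% of all miRNAs were called, and 0 in the vector line, where 25.3% were called. In the vector line 2 members had an unadjusted p under 0.05, and DESeq2 and limma-voom called 0.

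Between the lines miR-200b-3p did not keep one sign. Its log2 difference was 1.10 at 6 h (SE 0.572, edgeR adjusted p = 0.446), 0.47 at 24 h (0.803), 0.08 at 3 d (0.986) and -0.99 at 10 d (SE 0.512, adjusted p = 0.374). The mean over the times was 0.17 (95% interval -0.36 to 0.69, adjusted p = 0.757). With the doubtful libraries exchanged the values were 1.42 at 6 h, -1.13 at 10 d and 0.21 for the mean, and with both left out 1.57, -1.12 and 0.26; none passed the test.

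**Figure D3:**
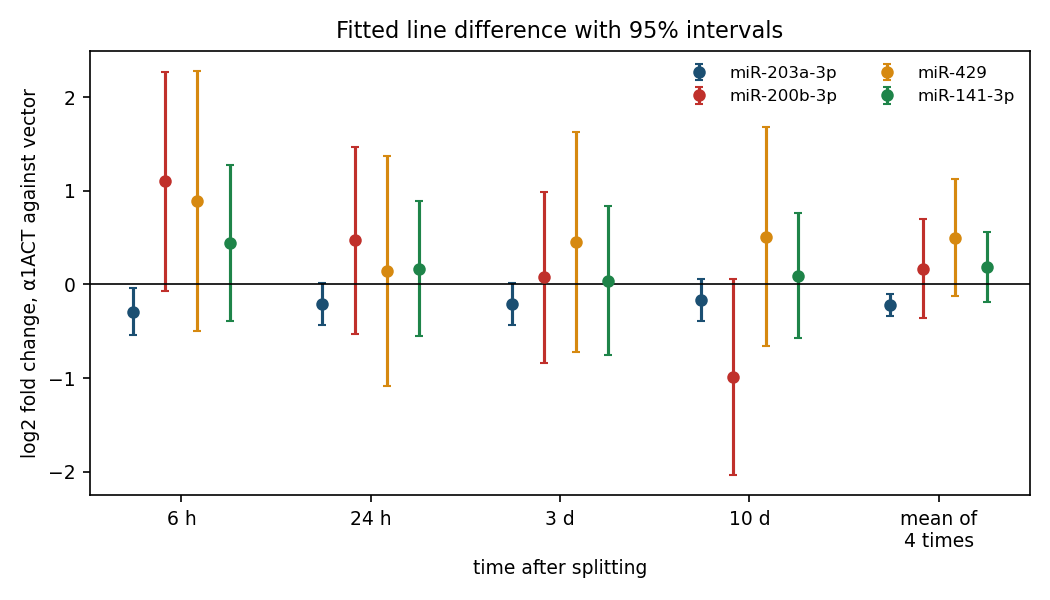
Fitted log2 fold change of the α1ACT against the vector line for the 4 tested members at each time and averaged over the 4 times, with 95% intervals (bars); 0 means no difference. The miR-203a-3p estimate lies below 0 at each time with narrow intervals, which include 0 at 24 h, 3 d and 10 d. The miR-200b-3p estimate runs from 1.10 at 6 h to -0.99 at 10 d with wide intervals.

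miR-429, made from the same stretch of chromosome 5 as miR-200b, was lower in count and noisier. In the vector line it stood at 1.73 and 3.60 CPM at 6 h, at 2.75, 1.66 and 5.27 CPM at 24 h, at 6.73, 3.71 and 3.48 CPM at 3 d and at 3.01, 0.688 and 2.85 CPM at 10 d. In the α1ACT line it stood at 4.64, 2.83 and 7.66 CPM at 6 h, at 5.22, 2.55 and 1.79 CPM at 24 h, at 6.23, 3.03 and 7.08 CPM at 3 d and at 3.26, 1.95 and 4.82 CPM at 10 d. The lines overlapped at each time with the libraries as named; exchanging the doubtful ones puts 0.688 in place of 3.60 CPM at 6 h, below all 3 α1ACT libraries. The mean log2 difference was 0.50 (SE 0.304, 95% interval -0.12 to 1.12, edgeR adjusted p = 0.306), and it was 0.67 with the doubtful libraries exchanged and 0.56 with both left out. Over time miR-429 was not called in either line (adjusted p = 0.733 in vector, 0.368 exchanged and 0.790 left out, and 0.510 in α1ACT). The change from 6 h to 10 d in the vector line was -0.23, became 1.39 with the doubtful libraries exchanged and 0.62 with both left out, and so had no settled sign.

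miR-200c-3p, whose sequence stands above, was listed with 5 counts, 2 in vector 3 d replicate 3 and 3 in α1ACT 3 d replicate 3, and 0 in the other 21 libraries. The Chimira table gave it 39 counts in 19 libraries, 18 in the vector line and 21 in the α1ACT line, with at most 4 in a library. It lies 347 bp from miR-141, which had 748 counts in that same table. The Chimira table also listed the 5p arms of miR-200b (4 counts) and miR-200c (3 counts), none above 1 in a library.

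In the other seed class, miR-141-3p was the most abundant of the miR-200 family. In the vector line it stood at 10.8 and 6.31 CPM at 6 h, at 11.3, 6.23 and 13.8 CPM at 24 h, at 0, 10.5 and 7.23 CPM at 3 d and at 17.6, 11.7 and 13.7 CPM at 10 d. In the α1ACT line it stood at 10.5, 10.9 and 13.7 CPM at 6 h, at 12.0, 11.9 and 10.8 CPM at 24 h, at 7.12, 9.54 and 6.58 CPM at 3 d and at 14.9, 16.6 and 14.5 CPM at 10 d. In the α1ACT line every library at 10 d lay above every library at 3 d. In the vector line the same held with the libraries as named but rested on 10 d replicate 2: exchanged, that place holds 6.31 CPM, and the Chimira counts give 7.49 CPM against up to 11.4 CPM at 3 d. The value of 0 belongs to the shallowest library.

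Between the lines miR-141-3p differed by 0.18 on the log2 scale (SE 0.184, edgeR adjusted p = 0.556), by 0.13 with the doubtful libraries exchanged and by 0.07 with both left out. Over the 4 times it was not called in the vector line (adjusted p = 0.151, 0.554 exchanged and 0.212 left out) or in the α1ACT line (0.125). From 3 d to 10 d, the comparison added after the values had been seen, it rose by 0.98 in the α1ACT line (SE 0.352, adjusted p = 0.0336). The vector line gave 0.92 (SE 0.359, adjusted p = 0.0557), or 1.00 with both doubtful libraries left out (0.0675) and 0.76 with them exchanged (0.183). The α1ACT call ended without any 1 of 5 of its libraries in turn (3 d replicates 1 and 3, and each 10 d replicate), with adjusted p from 0.0607 to 0.112. It also ended with a minimum mean of 10 CPM (0.0574) and with the doubtful libraries exchanged (0.0595).

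miR-200a-3p, which lies between miR-200b and miR-429 in the genome, was listed above 0 in 15 of 23 libraries, with 12 counts at most, and was not tested in the sRNAbench table. In the Chimira table it had 107 counts spread over all 23 libraries, 53 in the vector line and 54 in the α1ACT line. It was tested there and gave a log2 line difference of 0.0046 (SE 0.287, edgeR adjusted p = 0.991). From 3 d to 10 d it gave -1.15 in the vector line (adjusted p = 0.143) and -1.25 in the α1ACT line (0.106), neither of which passed the test.

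The ratio of miR-200b-3p to miR-141-3p counts was looked at after the values had been seen and is a description only. Summed over the libraries of a group, it was 0.359, 0.391, 1.02 and 0.263 in the vector line at 6 h, 24 h, 3 d and 10 d. In the α1ACT line it was 0.575, 0.473, 1.14 and 0.126. In the α1ACT line the ratio was highest at 3 d and lowest at 10 d. The vector ratio at 3 d rested on replicate 3: without it the ratio was 0.613, and replicate 2 alone (0.419) lay below 6 h replicate 2 (0.643) and 24 h replicate 2 (0.667). Single α1ACT libraries ranged from 0.727 to 1.92 at 3 d and from 0.0980 to 0.154 at 10 d, without overlap. In the Chimira table the ratios at 3 d and 10 d were 1.00 and 0.333 in the vector line and 1.03 and 0.149 in the α1ACT line, and the vector ratio at 6 h was 0.254.

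**Figure D4:**
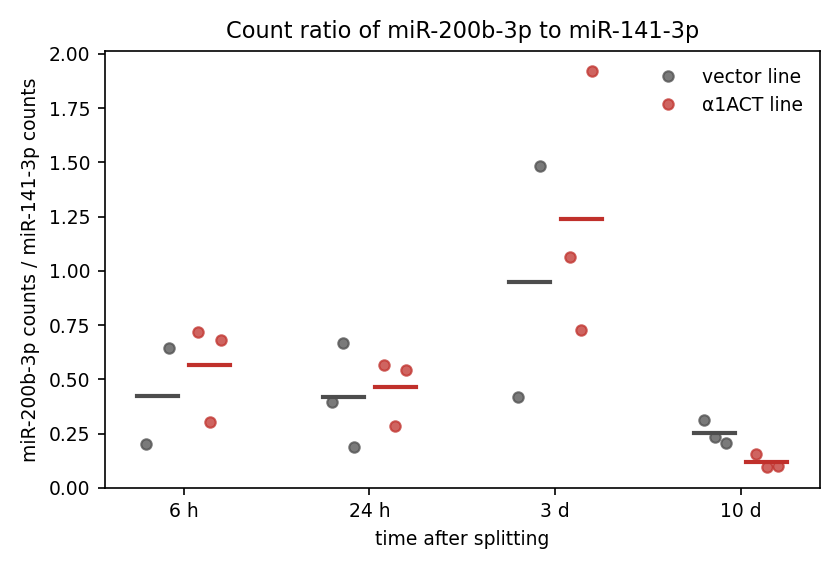
Ratio of miR-200b-3p counts to miR-141-3p counts in each library (points) and its mean over the libraries of a group (bars), by time after splitting. Vector 3 d replicate 1 has no ratio because miR-141-3p is at 0 there; the α1ACT libraries at 10 d hold the lowest values, 0.0980 to 0.154.

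Across the 23 libraries, log2 CPM of miR-200b-3p and miR-429, from one gene cluster, had a Pearson r of 0.55 (Spearman rho 0.52), and those of miR-200b-3p and miR-141-3p, from separate clusters, an r of -0.56 (rho -0.57). miR-203a-3p had an r of 0.15 with miR-200b-3p, of -0.27 with miR-429 and of -0.46 with miR-141-3p. Without vector 3 d replicate 1, the shallowest library, these were 0.026, -0.40 and -0.40, and the r of miR-200b-3p was 0.49 with miR-429 and -0.52 with miR-141-3p. The libraries share line, time and scaling, and the miR-200 counts are low, so these values describe the libraries and carry no test. Among 221 better-measured miRNAs, the 5 whose log2 CPM was most like that of miR-203a-3p over the 23 libraries were miR-25-3p (r = 0.85), miR-130b-3p (0.77), miR-30e-5p (0.75), miR-195-3p (0.75) and miR-106b-5p (0.74). The line difference of miR-203a-3p enters this choice, so the line differences of the 5 are a description: -0.18 for miR-25-3p, -0.15 for miR-130b-3p, -0.11 for miR-30e-5p, -0.22 for miR-195-3p and -0.13 for miR-106b-5p. Within the vector and the α1ACT line the r was 0.70 and 0.83 for miR-25-3p, 0.55 and 0.87 for miR-130b-3p, 0.78 and 0.73 for miR-30e-5p, 0.55 and 0.61 for miR-195-3p and 0.74 and 0.72 for miR-106b-5p.

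Other microRNAs, known from epithelia or linked to epithelial-mesenchymal transition, were taken from 2 lists and tested with the libraries as named only. The epithelial list held 7 hairpins, of which miR-205 was not listed in the counts, with 9 entries and 6 tested. None of the 6 was called between the lines by edgeR or limma-voom, with 2 at an unadjusted p under 0.05, and DESeq2 called 2. Their median log2 difference was -0.13 against 0.0009 over all miRNAs. From 6 h to 10 d in the α1ACT line 0 of the 6 rose and 2 fell, miR-96-5p by 0.97 (edgeR adjusted p = 0.00463) and miR-375-5p by 2.46 (0.0195). The scarce miR-375-5p averaged 3.19 CPM, with at most 24 counts in a library, while miR-375-3p stood at 0.15 and was not called (0.226). Nor were miR-182 (-0.0076), miR-183-3p (0.24) and miR-183-5p (-0.11) called. Over all miRNAs 11.2% rose and 16% fell in this comparison. The list's median there was -0.06, against -0.0076 over all miRNAs. From 6 h to 10 d the vector line gave -0.52 for miR-96-5p (edgeR adjusted p = 0.215) and -1.45 for miR-375-5p (0.248), neither called. miR-203b-3p was listed with at most 10 counts in a library and was not tested.

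The list of microRNAs linked to epithelial-mesenchymal transition held 11 hairpins, with 17 entries and 10 tested. Of the hairpins miR-155 was not listed in the counts and miR-221 was at 0. It does not sort them by whether they promote or oppose the transition, so its counts give no direction of such a change. Between the lines 3 of the 10 were higher in α1ACT and 0 lower: miR-9a-5p, which is abundant in neural progenitors and represses E-cadherin, by a log2 difference of 0.70 (edgeR adjusted p = 0.000349), miR-34c-5p by 0.47 (0.000391) and miR-34a-5p, a target of p53, by 0.33 (0.0214). Over all miRNAs 12.6% were called, 6.69% higher and 5.95% lower. The median of the 10 was 0.09. From 6 h to 10 d in the α1ACT line 2 of the 10 rose, miR-101a-3p by 0.38 (edgeR adjusted p = 0.00463) and miR-101b-3p by 0.31 (0.0293). In this comparison 0 fell, and 27.1% of all miRNAs were called. The vector line gave 0.31 for miR-101a-3p (edgeR adjusted p = 0.0616) and 0.21 for miR-101b-3p (0.268), neither called.

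Markers of other cell types were set beside these results, with the libraries as named only. The summed level of the mesenchymal list was 399 to 1322 CPM in vector and 303 to 786 CPM in α1ACT libraries. Of its hairpins 3 of 4 were counted, and miR-214 was not listed. Its most abundant entry, miR-143-3p, was lower in the α1ACT line by a log2 difference of -0.76 (edgeR adjusted p = 0.000139) and fell by 0.75 from 6 h to 10 d in that line (adjusted p = 0.0153). The other tested entry, miR-199a-3p, was called in neither comparison (0.0069 and 0.29). From 6 h to 10 d in the vector line miR-143-3p changed by -0.73 (edgeR adjusted p = 0.0507) and miR-199a-3p by 0.49 (0.411), neither called. The endothelial list summed to 88.3 to 143 CPM in vector and 75.04 to 122 CPM in α1ACT libraries. Of its 2 entries 0 were called between the lines. From 6 h to 10 d in the α1ACT line miR-126a-5p rose by 0.51 (edgeR adjusted p = 0.0256) while miR-126a-3p was at -0.10. In the vector line miR-126a-5p changed by 0.43 (adjusted p = 0.129) and miR-126a-3p by 0.07 (0.907), neither called. The glial list summed to 307 to 659 CPM and 393 to 841 CPM. Of its 4 entries 1 was called in each comparison: miR-338-3p was higher in the α1ACT line by 0.23 (adjusted p = 0.0282) and rose by 0.70 from 6 h to 10 d in that line (adjusted p = 0.000270). The others stood at 0.18 and 0.33 for miR-338-5p, -0.14 and -0.57 for miR-219a-1-3p, and -0.14 and 0.35 for miR-219a-5p. In the vector line miR-338-3p also rose by 0.70 from 6 h to 10 d (edgeR adjusted p = 0.00196). There miR-219a-1-3p changed by -1.03 (adjusted p = 0.0266), while miR-338-5p (0.35) and miR-219a-5p (0.10) were not called. The part of these shifts in the values of miR-203a-3p and miR-200b-3p was not tested.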

How the data were processed

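The 23 PC12 libraries were made by an Illumina small RNA protocol from a miRNA-enriched fraction, per the labels' protocols. The values are whole-number read counts per mature miRNA, as the authors deposited them, in a table whose name points to sRNAbench (413 entries) and another whose name points to Chimira (627 entries). Per the submitters' processing notes, edgeR was used. The aligner, miRBase release and genome build were not given in the sources used here. Reads shared by similar mature sequences may have been split between names, which was not tested. Columns named control were taken as the vector line and columns named WT as the α1ACT line, an assumption from the labels. Another 12 columns in each table matched no sample and stayed unused. An entry with no name held 0 counts (0% of the total) and was left out.

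The sRNAbench counts were fitted in R 4.3.3 with edgeR 4.0.16: filterByExpr, TMM scaling, 1 mean per group over 8 groups, robust quasi-likelihood tests, and Benjamini-Hochberg adjustment over 269 tested entries. The common biological coefficient of variation was 16.1%. Log2 CPM used a prior count of 2. DESeq2 1.42.0 and limma-voom (limma 3.58.1), other scalings, other filters, the Chimira table (305 entries tested), left-out libraries and exchanged columns were alternatives. The statistics were checked on simulated counts, drawn with the same spread for every miRNA and no replicate structure. The pass rule looked only at large changes and at unchanged miRNAs, so it does not cover a difference as small as that of miR-203a-3p. Nothing in the labels ties replicates to separate cultures; p-values thus measure only the spread between these libraries, which may be technical. No replicate pair agreed within sampling noise (chi-square per degree of freedom of at least 21.3).

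The named miRNAs are all entries of the rule, the 5 most alike to miR-203a-3p by Pearson r over 23 libraries among entries with a mean of at least 10 CPM, and list members that were called. The members and lists were chosen with earlier results of these data known. Sequences and gene positions are those of RefSeq, build GRCr8; none was converted between builds.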

Additional observations from a re-analysis of the deposited data

How the results depend on the processing

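Of 1656 refitted values of the 4 tested members, 1605 kept their side of the threshold and, where the test has one, their direction. The tests over the 4 times and of the interaction have no direction, and most values were not called in the main fit. Another 9 values were weaker, 15 stronger and 27 changed sign. The lower miR-203a-3p in the α1ACT line kept its sign in 35 of 35 settings and its call in 33, with -0.24 to -0.18 when single libraries were left out; it was weaker with upper-quartile scaling (-0.13) and library totals (-0.15). The fall of miR-200b-3p from 6 h to 10 d in the α1ACT line kept its call in 34 of 34 settings (-2.13 to -1.59), as did its test over time (adjusted p 0.00105 to 0.0231). A minimum mean of 10 CPM left miR-200b-3p and miR-429 untested. Depth limits the precision of the miR-200 family, with 3 to 40 counts of miR-200b-3p and 2 to 17 of miR-429 per library. Upper-quartile scaling moved the median of all miRNAs, to 0.25 at most (10 d against 3 d, vector line).

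Shared replicate numbers gave no clear pairing over all libraries: 33 of 77 same-numbered pairs correlated over 0.1 (median 0.0525, lowest -0.683, highest 0.734). Pairs of other numbers had a median of -0.0137, and 10 of 23 libraries correlated best with their own number. In the α1ACT line replicate 2 held the highest miR-203a-3p level at each time (384, 415, 438 and 388 CPM). Replicate as a block lowered the SE of the miR-203a-3p line difference to 0.0461 (edgeR adjusted p = 0.00346). With the replicate block the line difference of miR-203a-3p was -0.21, its vector change from 6 h to 10 d 0.0017, and the vector change of miR-200b-3p from 3 d to 10 d -1.19, which the block brought past the threshold (adjusted p = 0.0383, against 0.0589 without it); 1 miRNA was called between the lines at 6 h and 3 at 24 h.

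Counts of called miRNAs moved as follows. The mean line difference gave 34, against 19 in the Chimira table, 18 with the vector 6 h and 10 d replicate 2 libraries exchanged, 16 with both left out, and 16 to 40 without single libraries, the lowest without vector 6 h replicate 2. At 6 h the count of 0 became 2 (upper quartile), 1 (no filter), 3 (DESeq2) and 0 to 7 without single libraries. At 24 h the count of 1 became 3 with median-of-ratios scaling, the 10 CPM minimum and DESeq2, 2 with upper quartile, library totals, the pair left out and the exchanged Chimira table, 0 with limma-voom, and 0 to 2 without single libraries. At 3 d the count of 1 became 0 in the Chimira table, as deposited or exchanged, and with upper quartile, 6 with DESeq2, 2 with the pair left out and 0 to 5 without single libraries. At 10 d the count of 4 became 11 in the Chimira table, 10 with DESeq2, 7 with limma-voom or the pair left out, and 0 to 6 without single libraries. For 10 d against 6 h in the vector line, 32 became 0 in the Chimira table, 60 with upper quartile, 0 exchanged, 11 left out and 16 to 41 without single libraries. For 10 d against 3 d in the vector line, 68 became 44 exchanged and 44 to 75 without single libraries. The vector time test went from 99 to 56 in the Chimira table and 46 exchanged. The interaction count of 0 became 2 in the Chimira table, 1 with upper quartile, 2 with DESeq2, 2 exchanged, 1 left out and 0 to 4 without single libraries.

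Among members, miR-203a-3p from 6 h to 10 d in the vector line was 0.13 with upper quartile, 0.0056 exchanged and -0.139 to 0.0394 without single libraries, and in the α1ACT line -0.0454 to 0.175; its vector change from 3 d to 10 d was 0.017 with upper quartile and -0.33 with library totals, where it was called (adjusted p = 0.0352). miR-429 from 6 h to 10 d in the vector line was 1.01 in the Chimira table, 1.39 exchanged, 0.62 left out and -0.721 to 0.301 without single libraries, and its line difference at 24 h ran from -0.460 to 0.564. Without single libraries miR-200b-3p ran from -0.160 to 0.716 (vector, 6 h to 10 d), -0.351 to 0.446 (lines at 3 d), -1.59 to -0.794 (vector, 3 d to 10 d) and an adjusted p of 0.0229 to 0.587 (vector, over time). Its vector change from 3 d to 10 d was called with library totals (-1.27), with the replicate block, without vector 3 d replicate 2 (-1.59), without vector 10 d replicate 1 (-1.58) and in the exchanged Chimira table (-1.02), where its vector time test gave 0.0477. miR-141-3p between the lines at 3 d was -0.0135 in the Chimira table, -0.0215 with that table exchanged, -0.0126 without a filter, -0.0106 with DESeq2 and -0.178 to 0.444 without single libraries, and at 24 h -0.0750 to 0.382. Its change from 3 d to 10 d in the vector line was 1.15 with upper quartile, 0.77 in the exchanged Chimira table and 0.706 to 1.33 without single libraries; in the α1ACT line it was 0.87 with the 10 CPM minimum and 0.98 exchanged, both no longer called (0.0574 and 0.0595), and 0.876 to 1.16 without single libraries. Its time test gave 0.0489 in vector with upper quartile, and in α1ACT 0.0367 in the exchanged Chimira table and 0.0438 to 0.311 without single libraries. The exchanged Chimira table, the 3 d to 10 d comparison and the count ratio with single libraries left out were chosen after seeing the data. The cause of these changes was not tested.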
